A study of Mus musculus with 7 samples.

Results

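The CC chemokines described here were 10 genes, Ccl2, Ccl3, Ccl4, Ccl5, Ccl6, Ccl7, Ccl9, Ccl12, Ccl22 and Ccl24, chosen by symbol among the 48440 genes of the LPS table and the 55352 genes of the AAV table. Each symbol matched 1 row in both tables. The cells were bone-marrow-derived macrophages (BMDMs), mouse marrow cells that the study took from wild-type C57BL/6 mice and grew into macrophages with M-CSF. In the LPS experiment, wild-type BMDMs were left without treatment (0 h) or were given 100 ng per mL lipopolysaccharide (LPS), a bacterial cell wall component sensed by Toll-like receptor 4, for 2 h or 4 h, and each time point was 1 library. In the AAV experiment, BMDMs received an adeno-associated virus (AAV) for 48 h, carrying green fluorescent protein (AAV-GFP) or the transmembrane protein Shisa3 (AAV-Shisa3), and each group held 2 samples. Both vectors used the CAG promoter, which is active in most cell types and is not specific to macrophages, and no library came from BMDMs without virus in this experiment. The labels do not say whether the 2 samples of a group came from separate mice or cultures, so the p-values measure only the spread between these samples.

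Chemokines are small secreted proteins that direct leukocytes along a gradient. The CC family is named for a pair of adjacent cysteines near the start of the mature protein, and its members act on CC receptors of the G protein-coupled class. Ccl2, Ccl7 and Ccl12 attract monocytes through Ccr2, Ccl3, Ccl4 and Ccl5 attract monocytes, T cells and other leukocytes, Ccl6 and Ccl9 are rodent chemokines made by myeloid cells that act through Ccr1, Ccl22 attracts regulatory and type 2 helper T cells through Ccr4, and Ccl24 attracts eosinophils through Ccr3. Macrophages are a main source of several of these ligands once Toll-like receptors are engaged.

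The LPS libraries held 15588502 reads at 0 h, 7263258 at 2 h and 32659392 at 4 h, and the depth of the AAV samples is unknown. The macrophage markers Adgre1, Csf1r, Cd68, Itgam, Mertk, Fcgr1 and Lyz2 summed to between 34024 and 37119 TPM (a transcript abundance scaled per length and to a fixed total) in the 4 AAV samples, and 0 of the 7 passed limma's test between AAV-GFP and AAV-Shisa3. In the LPS libraries, Itgam had more than 1 row and was left out, and the other macrophage markers summed to 31598, 19881 and 16727 reads per 1000000 at 0, 2 and 4 h. Most of that sum was Lyz2, at 24182, 14140 and 11786, followed by Csf1r at 4642, 3389 and 1794, Adgre1 at 1721, 1586 and 1706, Cd68 at 766, 429 and 466, Mertk at 144, 50.9 and 76.4 and Fcgr1 at 143, 287 and 900. These values are on the scale of equal library totals, and no direction is read from them. In the same unit the neutrophil markers summed to 470, 625 and 397. T cell markers summed to at most 0.14 TPM, with Cd3e, Cd3d and Trac listed at 0, and B cell markers to at most 0.33 TPM. Dendritic cell markers summed to between 2.5 and 4.2 TPM, with Cd209a listed at 0, eosinophil markers to between 3.25 and 5.44 TPM, mast cell and basophil markers to between 0.25 and 0.92 TPM and fibroblast markers to between 9.39 and 16.3 TPM. Because these are bulk samples, fewer cells of a type and less RNA per cell cannot be told apart.

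Of the 10 genes, 8 lie on mouse chromosome 11 and fall into a first group of Ccl2, Ccl7 and Ccl12 and a second of Ccl5, Ccl9, Ccl6, Ccl3 and Ccl4. In GENCODE M21, on GRCm38, these are Ccl2 (ENSMUSG00000035385.5) at chr11:82035571-82037453 on the plus strand, Ccl7 (ENSMUSG00000035373.2) at chr11:82045712-82047525 on the plus strand, Ccl12 (ENSMUSG00000035352.3) at chr11:82101845-82103400 on the plus strand, Ccl5 (ENSMUSG00000035042.2) at chr11:83525778-83530518 on the minus strand, Ccl9 (ENSMUSG00000019122.8) at chr11:83572919-83578636 on the minus strand, Ccl6 (ENSMUSG00000018927.3) at chr11:83587882-83593087 on the minus strand, Ccl3 (ENSMUSG00000000982.5) at chr11:83647844-83649355 on the minus strand and Ccl4 (ENSMUSG00000018930.3) at chr11:83662584-83664683 on the plus strand. Ccl22 (ENSMUSG00000031779.3) lies at chr8:94745590-94751699 on the plus strand and Ccl24 (ENSMUSG00000004814.10) at chr5:135569937-135573049 on the minus strand. The labels name mm9 as the build behind the tables, so these positions are those of the annotation used here and not of the authors' alignment. Ccl2 overlaps Gm17268 and Ccl6 overlaps E230016K23Rik, each on the opposite strand. Gm17268 was at 0 in every library, and E230016K23Rik reached at most 16 reads and 0.28 TPM.

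The closest coding sequences were those of members in the same chromosomal group. Coding sequences were 70.0% identical between Ccl3 and Ccl4, 69.3% between Ccl6 and Ccl9 and 68.3% between Ccl7 and Ccl12 over the aligned bases. The longest exact stretch of coding sequence shared by any pair was 23 bases, between Ccl6 and Ccl9, which is shorter than the sequencing reads. For the pairs of Ccl6 with Ccl9 and of Ccl7 with Ccl12, 30 coding bases around the adjacent cysteines that define the family are shown from GENCODE M21 transcripts, 5′ to 3′, with the cysteine codons in capitals, because they are the family's defining feature.
Ccl6: acttcttcagacTGCTGCttctcttatgcc
Ccl9: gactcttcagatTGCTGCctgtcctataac
Ccl7: aatgcatccacaTGCTGCtatgtcaagaaa
Ccl12: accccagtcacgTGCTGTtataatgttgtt
All 10 members held such a pair of codons, and in Ccl24 a further pair stood earlier in the coding sequence.

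RefSeq promoters on GRCm38.p6 were matched for 5 of the 10 members, Ccl3, Ccl6, Ccl9, Ccl12 and Ccl22. The 250 bases before the start were searched on both strands for GGGANTTTC and GGAANTTCC, which resemble NF-κB sites, GAAANNGAA, which resembles an interferon-response element, TGACTCA, the AP-1 element, and TGACGTCA, the cyclic AMP response element. Each string was searched on its own, so matches could overlap, and the matches found did not. Ccl12 held GGAANTTCC at bases -17 to -9 before the start, and Ccl3 held GAAANNGAA on the opposite strand at bases -39 to -31. Among all 32817 promoters of that length, 0.942% held GGGANTTTC, 0.811% GGAANTTCC, 7.12% GAAANNGAA, 4.46% TGACTCA, 1.55% TGACGTCA and 14.1% any of them. The promoters of Ccl6, Ccl9 and Ccl22 held none of these letters in this window. Shown here are the promoters of Ccl12 and Ccl3, whose signal differed widely between 0 h and LPS, and of Ccl6, whose signal differed least, 5′ to 3′ on the gene's strand with the matches in capitals. They lie at chr11:82101595-82101844 on the plus strand for Ccl12, chr11:83649379-83649628 on the minus strand for Ccl3 and chr11:83593088-83593337 on the minus strand for Ccl6.
Ccl12: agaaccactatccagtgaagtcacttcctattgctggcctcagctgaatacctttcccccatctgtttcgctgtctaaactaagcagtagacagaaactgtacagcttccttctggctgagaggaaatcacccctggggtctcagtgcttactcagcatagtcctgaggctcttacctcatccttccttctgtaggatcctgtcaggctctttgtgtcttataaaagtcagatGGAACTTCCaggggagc
Ccl3: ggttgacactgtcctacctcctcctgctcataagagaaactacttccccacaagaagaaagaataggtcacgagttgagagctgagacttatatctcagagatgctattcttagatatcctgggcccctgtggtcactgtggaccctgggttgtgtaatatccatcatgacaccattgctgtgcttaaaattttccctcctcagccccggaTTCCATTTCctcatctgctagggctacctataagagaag
Ccl6: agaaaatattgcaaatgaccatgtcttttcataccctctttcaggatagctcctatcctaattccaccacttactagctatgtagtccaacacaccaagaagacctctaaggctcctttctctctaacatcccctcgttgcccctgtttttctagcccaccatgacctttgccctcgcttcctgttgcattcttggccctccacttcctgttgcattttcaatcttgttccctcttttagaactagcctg

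The first question was how the macrophage's CC chemokine repertoire stood before and after LPS. Of the 10 members, 9 exceeded their 0 h signal by 2-fold or more in the 2 h library, and 9 did so in the 4 h library, with Ccl6 the exception at both times. The folds ran from 3.97 for Ccl9 to 314 for Ccl4 at 2 h and from 7.75 for Ccl9 to 808 for Ccl5 at 4 h among the 9. By the same rule 20.5% of all 17854 genes with a mean signal of at least 1 were higher and 24.7% lower at 2 h, and 22.2% were higher and 23.6% lower at 4 h. The median log2 change of the members was 5.27 at 2 h and 6.05 at 4 h, against -0.05 and -0.04 over all genes. Together the 10 genes made up 0.0939% of reads at 0 h, 0.665% at 2 h and 0.964% at 4 h. Single libraries allow no test, and both comparisons share the 0 h library. The deposited signal holds whole reads scaled by a factor for each library, and intervals on its ratios cover counting error only, at 95%. When the reads were instead scaled to equal library totals, all genes shifted to a median of -0.71 at 2 h and -0.83 at 4 h, and 2377 genes were higher and 7288 lower at 2 h in place of 3668 and 4406. At 4 h, 2303 were higher and 7908 lower in place of 3958 and 4207. The members' medians were then 4.61 and 5.23, and the same number of members, 9, was at least 2-fold higher at each time. Median centring moved the split the other way, to 4808 higher and 3454 lower at 2 h and 5285 and 3036 at 4 h.

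**Figure D1:**
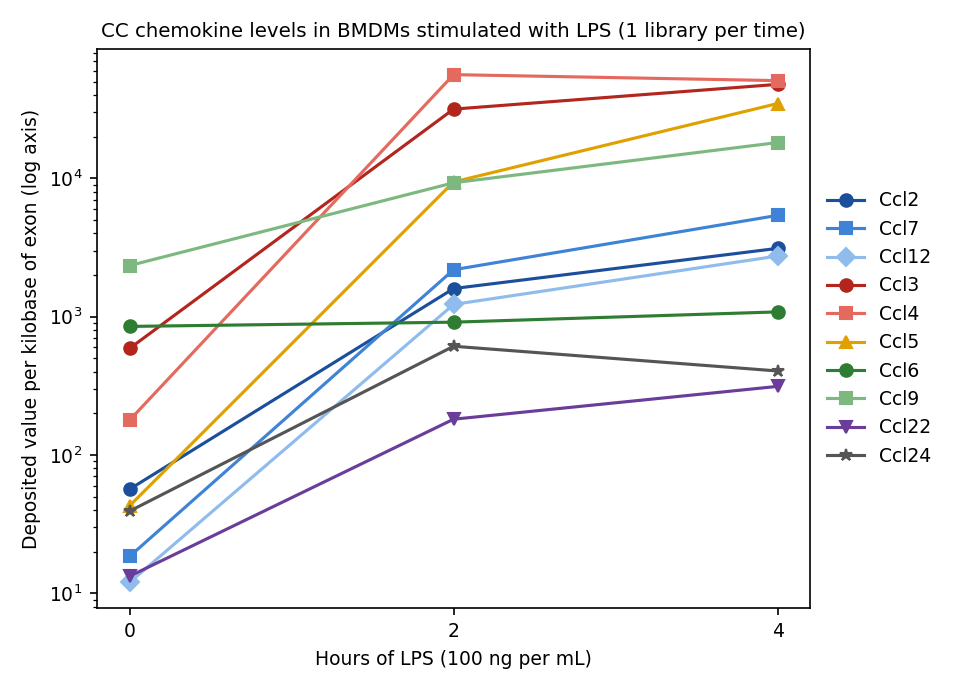
Normalised signal per kilobase of exon (log axis) of the 10 CC chemokines in the single BMDM libraries at 0, 2 and 4 h of LPS; each point is 1 library and lines join the time points of a gene. Ccl9 and Ccl6 lead at 0 h, Ccl4, Ccl3 and Ccl5 lead at 4 h, and the line of Ccl6 is nearly flat.

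Among the Ccr2 ligands, Ccl2, the main monocyte attractant of the family, had a normalised signal at 0, 2 and 4 h of 64.3, 1815 and 3542. This was 28.2-fold higher at 2 h (interval 22.9 to 35.1) and 55.1-fold higher at 4 h (45.2 to 67.8), on 100 reads at 0 h. Ccl7, also known as monocyte chemotactic protein 3, stood at 14.8, 1747 and 4318, which was 118-fold higher at 2 h (78.1 to 187) and 292-fold higher at 4 h (194 to 461). The width of its intervals comes from the 23 reads at 0 h. Ccl12, a mouse relative of Ccl2, stood at 6.43, 657 and 1472, which was 102-fold higher at 2 h (54.8 to 215) and 229-fold higher at 4 h (124 to 478), on 10 reads at 0 h. All 3 genes were low before LPS and higher again at 4 h than at 2 h, and the intervals of Ccl7 and Ccl12 overlapped at each time while those of Ccl2 lay below them.

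In the set of Ccl3, Ccl4 and Ccl5, Ccl3, which encodes macrophage inflammatory protein 1α, had a signal at 0, 2 and 4 h of 451, 24199 and 36536. This was 53.7-fold higher at 2 h (49.7 to 58.0) and 81.0-fold higher at 4 h (75.2 to 87.4). Ccl4, which encodes macrophage inflammatory protein 1β and is the neighbour of Ccl3, stood at 118, 37011 and 33508, which was 314-fold higher at 2 h (272 to 366) and 285-fold higher at 4 h (246 to 331). Ccl4 was highest in the 2 h library, and its 4 h signal stood at 0.905 of the 2 h library (0.890 to 0.921). Ccl5, also known as RANTES, stood at 41.2, 9027 and 33285, which was 219-fold higher at 2 h (171 to 285) and 808-fold higher at 4 h (633 to 1050). Ccl5 took rank 9 of 17854 genes by its log2 change at 4 h. Of the members, Ccl5 also had the widest step between the stimulated libraries, 3.69-fold (3.57 to 3.81).

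Ccl6 and Ccl9, the rodent chemokines, were already abundant without LPS. Ccl9, also known as macrophage inflammatory protein 1γ, had a signal at 0, 2 and 4 h of 7119, 28239 and 55165, which was 3.97-fold (3.87 to 4.07) and 7.75-fold higher (7.60 to 7.90). Ccl6 stood at 1524, 1636 and 1941. Its ratio to 0 h was 1.07 at 2 h (0.987 to 1.17) and 1.27 at 4 h (1.21 to 1.34), and with equal library totals it was 0.679 and 0.720, so the direction for Ccl6 turned with the scaling. Ccl6 was thus the member nearest to its 0 h level in both LPS libraries, beside a neighbour of similar sequence that was higher at both times under either scaling.

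Ccl22 and Ccl24 are best known from macrophages activated by interleukin 4, and both were low at 0 h. Ccl22, the Ccr4 ligand, had a signal at 0, 2 and 4 h of 30.9, 421 and 728, which was 13.6-fold (9.90 to 19.1) and 23.6-fold higher (17.7 to 32.1). Ccl24, or eotaxin 2, stood at 50.8, 790 and 524, which was 15.6-fold (12.2 to 20.1) and 10.3-fold higher (8.19 to 13.1). Ccl24 was the member with the lowest ratio of 4 h to 2 h, 0.663 (0.587 to 0.750).

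Between the stimulated libraries, 3 members, Ccl5, Ccl7 and Ccl12, were at least 2-fold higher at 4 h than at 2 h and 0 were at least 2-fold lower. The background was 17.9% of genes higher and 15.2% lower. Ccl2 and Ccl9 lay just under the threshold, each at 1.95-fold. After median centring of the libraries, where 3339 of all genes were higher and 2260 lower, the count of members was 5. With equal library totals it was 2, Ccl5 and Ccl7, with Ccl12 at a log2 change of 1.00 just under 2-fold, and all genes split into 2453 higher and 3131 lower in place of 3197 and 2710. The median log2 change of the members was 0.88 against 0.05 over all genes. This comparison shares its libraries with those against 0 h.

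Per kilobase of exon, the order of the members' levels differed between the unstimulated and the stimulated libraries. At 0 h it ran Ccl9, Ccl6, Ccl3, Ccl4, Ccl2, Ccl5, Ccl24, Ccl7, Ccl22, Ccl12, from a signal of 2338 per kilobase for Ccl9 to 12.0 for Ccl12. Counting intervals did not separate Ccl2 from Ccl5, Ccl5 from Ccl24, Ccl7 from Ccl22 or Ccl22 from Ccl12 there. At 2 h and at 4 h the order was Ccl4, Ccl3, Ccl5, Ccl9, Ccl7, Ccl2, Ccl12, Ccl6, Ccl24, Ccl22. It ran from 56077 per kilobase for Ccl4 to 181 for Ccl22 at 2 h and from 50769 to 313 at 4 h, and only Ccl5 and Ccl9 at 2 h were not separated, with a ratio of 1.01 (0.979 to 1.05). Ccl6 was behind only Ccl9 at 0 h and ahead of only Ccl24 and Ccl22 with LPS, without a 2-fold difference of its own. Spread between cultures could not be measured with 1 library per time.

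The second question was whether BMDMs transduced with Shisa3 differed in CC chemokine mRNA from those transduced with GFP. The transduced gene, Shisa3, stood at 7.88 and 10.9 TPM under AAV-GFP compared with 12.3 and 17.8 TPM under AAV-Shisa3, a log2 change of 0.63 that did not pass limma's test (adjusted p = 0.138). The sources used here do not say whether transcripts of the vector are counted in this value, so it does not settle the level of the transgene. Of the 10 members, 9 had a mean of at least 1 TPM and were tested. Ccl3, Ccl4, Ccl7, Ccl9 and Ccl24 rose with AAV-Shisa3, so 5 of 9 passed limma's test after Benjamini-Hochberg adjustment over 11218 genes, and 0 fell. By that rule 2.23% of all genes tested were higher and 4.1% lower. The count of 5 depended on the settings, and was 0 without limma's variance trend and 0 without the filter on low values. Log2 changes are on the log2(TPM + 1) scale, which understates those of low genes.

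**Figure D2:**
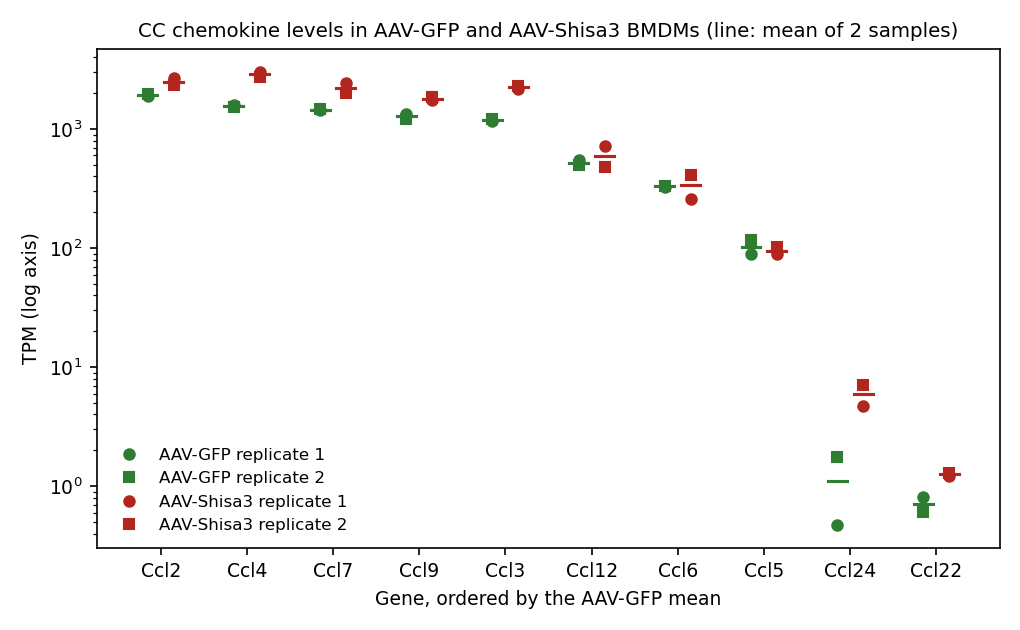
TPM (log axis) of the 10 CC chemokines in each of the 2 AAV-GFP samples (green) and 2 AAV-Shisa3 samples (red), with circles for replicate 1, squares for replicate 2 and a line at the mean of each group. The red points of Ccl3 and Ccl4 sit between 2193 and 3023 TPM and the green between 1169 and 1582 TPM, while the points of Ccl12, Ccl6 and Ccl5 overlap.

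Ccl3 measured 1169 and 1209 TPM under AAV-GFP but 2193 and 2320 TPM under AAV-Shisa3. The groups did not overlap, and the log2 change was 0.92 (SE 0.0712, 95% interval 0.75 to 1.10, limma adjusted p = 0.0129), rank 14 of 11218 genes by p. Ccl4 had 1582 and 1546 TPM against 3023 and 2748 TPM, without overlap, with a log2 change of 0.88 (SE 0.0782, 0.69 to 1.07, limma adjusted p = 0.0153). The ratio of group means was 1.90 for Ccl3 and 1.85 for its neighbour Ccl4. Ccl5, which also attracts T cells and monocytes, had 88.9 and 117 TPM against 89.2 and 101 TPM, and the groups overlapped. Its log2 change was -0.10 (-0.46 to 0.26, limma adjusted p = 0.678), and it became 0.01 after median centring of the samples.

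Of the Ccr2 ligands, Ccl7 measured 1434 and 1469 TPM under AAV-GFP but 2433 and 2005 TPM under AAV-Shisa3. The groups did not overlap, and the log2 change was 0.61 (SE 0.105, 0.35 to 0.87, limma adjusted p = 0.0349). Ccl2 had 1907 and 1974 TPM against 2689 and 2325 TPM, also without overlap, with a log2 change of 0.37 that did not pass (0.14 to 0.59, limma adjusted p = 0.0725). Ccl12 had 549 and 496 TPM against 721 and 479 TPM. Its AAV-Shisa3 samples lay on either side of the AAV-GFP samples, with a log2 change of 0.17 (-0.30 to 0.64, limma adjusted p = 0.587), which was -0.12 without AAV-Shisa3 replicate 1.

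Ccl9 measured 1344 and 1215 TPM under AAV-GFP but 1746 and 1857 TPM under AAV-Shisa3, without overlap, and a log2 change of 0.49 (SE 0.0824, 0.29 to 0.70, limma adjusted p = 0.0326). Ccl6 had 323 and 336 TPM against 261 and 411 TPM. The AAV-GFP samples of Ccl6 lay between its AAV-Shisa3 samples, and the log2 change was -0.01 (-0.51 to 0.49, limma adjusted p = 0.98), which was 0.11 with centred samples.

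Ccl22 and Ccl24 were near the floor of the table. Ccl24 measured 0.47 and 1.75 TPM under AAV-GFP but 4.72 and 7.14 TPM under AAV-Shisa3. The groups did not overlap, and the log2 change was 1.76 (SE 0.343, 0.92 to 2.61, limma adjusted p = 0.0435), the widest among the members at the lowest level tested. With a pseudocount of 0.1 in place of 1 the log2 change was 2.52 and it did not pass (limma adjusted p = 0.0575). Ccl22 had 0.81 and 0.61 TPM against 1.22 and 1.30 TPM, without overlap, and with a mean under 1 TPM it was not tested.

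Over the 9 members tested the median log2 change was 0.49, against -0.10 over all genes, and centring each sample moved the latter to 0.01. Centring gave 410 genes higher and 230 lower in place of 250 and 460, and 5 members higher as before. Both AAV-Shisa3 samples lay above both AAV-GFP samples in 6 of the 9 tested members and in 7 of all 10, and 0 lay below. Over all genes tested the shares were 18.2% above and 41.2% below. Summed over the 10 genes, AAV-GFP samples held 8399 and 8364 TPM and AAV-Shisa3 samples 13161 and 12255 TPM, and an exact permutation test of 2 against 2 samples cannot go below p = 0.333. The count of 5 was 0 without any trend in limma's variance, 0 without the filter on low values, and 0, 0, 0 and 1 when a sample was left out in turn. At an unadjusted p under 0.05, limma called 6 of the 9 members higher and 0 lower, and 8.21% of all genes tested higher and 19.8% lower.

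**Figure D3:**
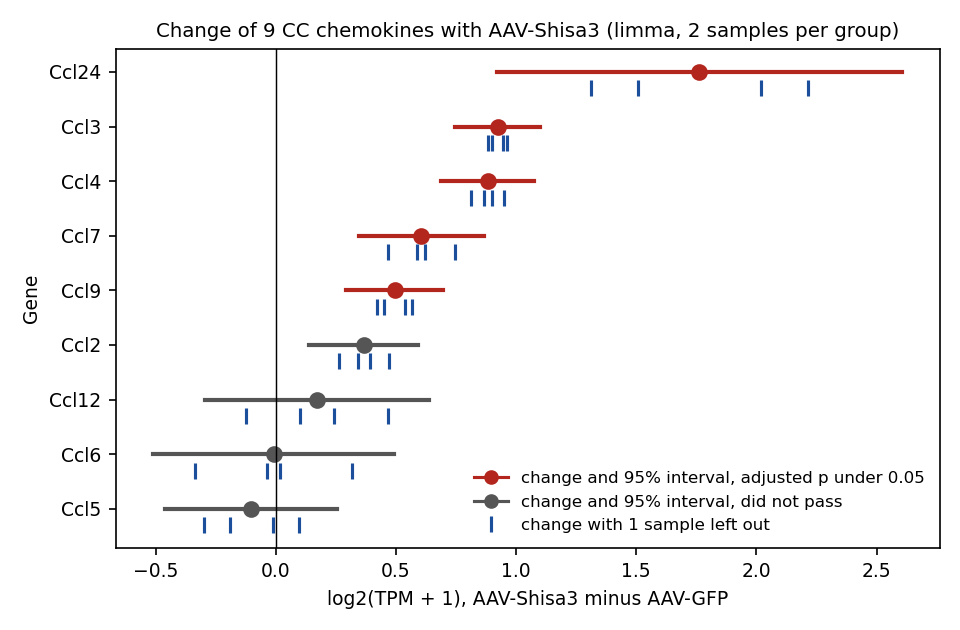
Change in log2(TPM + 1) between AAV-Shisa3 and AAV-GFP for the 9 CC chemokines tested, with limma's 95% interval as a bar, red where the adjusted p was under 0.05, and a blue tick for each fit with 1 of the 4 samples left out. The 5 red intervals lie above 0, as does that of Ccl2 at 0.14 to 0.59, and the ticks of Ccl12, Ccl6 and Ccl5 fall on both sides of 0.

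Some neutrophil markers were higher with AAV-Shisa3 as well. The 8 genes summed to 593 and 565 TPM under AAV-GFP compared with 1090 and 681 TPM under AAV-Shisa3. Of 7 tested, 2 rose and 0 fell, beside 2.23% and 4.1% of all genes. The 2 were the granule genes Camp (log2 change 1.14, limma adjusted p = 0.0422) and Ngp (1.02, limma adjusted p = 0.0378). Neither passed without the variance trend, without the filter or with a sample left out, except without AAV-Shisa3 replicate 2, where both did. Ly6g, the defining surface marker, stood at 0.10 to 0.29 TPM. AAV-Shisa3 replicate 1 had the higher neutrophil sum, and of the 5 members that rose, Ccl4 and Ccl7 were higher in it than in AAV-Shisa3 replicate 2 and Ccl3, Ccl9 and Ccl24 were lower. The part of neutrophil RNA in the chemokine values was not tested.

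TPM is a level per length, so the members can be ordered within the AAV experiment. In the AAV-GFP samples the order was Ccl2, Ccl4, Ccl7, Ccl9, Ccl3, Ccl12, Ccl6, Ccl5, Ccl24, Ccl22, and only the ranges of Ccl24 and Ccl22 overlapped between neighbours. In the AAV-Shisa3 samples Ccl4 was highest at 2885 ± 195 TPM (SD, n = 2), above Ccl2 at 2507 ± 257 TPM, followed by Ccl3 at 2256 ± 90.3 TPM. The range of Ccl7 overlapped those of Ccl2 and Ccl3 there. Ccl5, behind only Ccl4 and Ccl3 by signal per length in the 4 h LPS library, came after 7 other members in both AAV groups.

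The members stood at different levels in the untreated cells of the LPS experiment and in the AAV-GFP cells. The tables were normalized separately, so 0 h reads were turned into TPM with exon lengths, and the rank within each library is given as well. By that estimate Ccl7 was 8.16 higher on the log2(TPM + 1) scale in AAV-GFP than at 0 h. Ccl2 and Ccl12 were each 7.16 higher, Ccl4 5.27, Ccl5 3.31 and Ccl3 3.18, against a median of 0.24 over 10529 genes. Ccl9 and Ccl6 were 1.30 and 0.80 higher. Ccl22 stood at -1.21 and Ccl24 at -2.20, so the members known from interleukin 4 activation were lower, on a scale that understates differences at low levels. Ccl2 thus had a level above 42.7% of genes at 0 h, 97.6% at 4 h of LPS and 99.4% and 99.5% in the AAV-GFP samples, while Ccl5 stood at 34.9% at 0 h, 99.8% at 4 h and 84.6% and 88.0% with AAV-GFP. The virus, the culture and the processing cannot be told apart between these experiments, and no test was made.

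**Figure D4:**
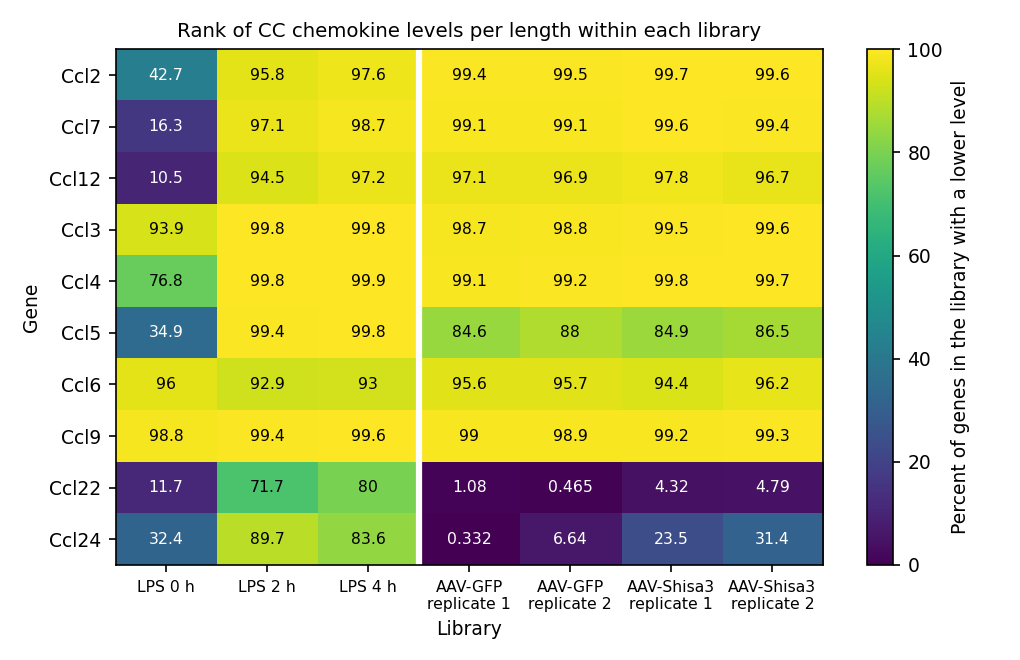
Percent of 10529 genes with a lower level per length than each CC chemokine (colour and printed number, 0 to 100) in the 3 LPS libraries and, right of the white line, the 4 AAV samples. Ccl2, Ccl7 and Ccl12 stand at 10.5 to 42.7 at 0 h and at 94.5 or higher elsewhere, and Ccl22 and Ccl24 are lowest in the AAV-GFP samples.

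The other mouse CC chemokines were mostly listed at 0 or rare. Of 11 listed, 5 had a mean signal of at least 1 in the LPS libraries, of which 2 were at least 2-fold higher and 2 lower at 2 h, and 3 higher and 1 lower at 4 h on the log2(signal + 1) scale, against 20.5% and 24.7% of all genes at 2 h and 22.2% and 23.6% at 4 h. Several of these rest on few reads. By a stricter rule chosen after the values were seen, which asked for a 2-fold ratio with the lower library set to at least 3 reads and for a counting interval that leaves out 1, Ccl8 and Ccl17 were higher at both times, and only Ccl27a was lower, at 4 h. That rule called 15.1% of all genes higher and 15.1% lower at 2 h, and 18.6% and 21% at 4 h. Ccl8, which lies in the same gene group as Ccl2, had 3, 46 and 549 reads at 0, 2 and 4 h, a ratio to 0 h of 52.1 (16.7 to 262) and 155 (52.6 to 752). Ccl17, which shares Ccr4 with Ccl22, had 0, 10 and 26 reads. Set against 3 reads at 0 h, it was 11.3-fold higher at 2 h and 7.32-fold higher at 4 h. Ccl20, the Ccr6 ligand, had 7 reads at 4 h and 0 before, 1.97-fold higher against 3 reads. These ratios to 3 reads leave out counting error and are not lower bounds. Ccl25 had a ratio to 0 h of 0.438 at 2 h, with an interval of 0.112 to 1.24 that holds 1, and of 0.545 at 4 h (0.294 to 0.987), which is short of 2-fold lower. Ccl27a had 42, 5 and 9 reads at 0, 2 and 4 h, a ratio to 0 h of 0.404 at 2 h (0.125 to 1.02) and 0.181 at 4 h (0.0775 to 0.377). Only 2 were tested in the AAV experiment and 0 passed. Ccl8 measured 59.3 and 72.8 TPM under AAV-GFP compared with 44.6 and 48.3 TPM under AAV-Shisa3, without overlap, at a log2 change of -0.49 (limma adjusted p = 0.069), whereas both AAV-Shisa3 samples were higher for Ccl2 and Ccl7.

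Among CC receptors and their relatives, whether or not they bind the 10 members, Ccr2 was lower and Ccr7 and Ccrl2 were higher in both LPS libraries than at 0 h. Of 17 CC and atypical receptors listed, 10 had a mean signal of at least 1 in the LPS libraries, of which 7 were at least 2-fold higher and 1 lower at 2 h, and 7 higher and 2 lower at 4 h on the log2(signal + 1) scale, where all genes gave 20.5% and 24.7% at 2 h and 22.2% and 23.6% at 4 h. With equal library totals 11 receptors passed the filter, of which 6 were higher and 2 lower at 2 h and 5 higher and 3 lower at 4 h, and Ccr1 was no longer 2-fold higher. All genes then gave 13.3% higher and 40.6% lower at 2 h, and 12.8% and 44.1% at 4 h. Ccr1l1, Ccr6 and Ccr10 had at most 5 reads in any library, and no direction is read from them. By the stricter rule, whose shares over all genes are given with the other ligands, 5 receptors were higher and 1 was lower at 2 h, and 6 were higher and 1 was lower at 4 h. Ccr2, the receptor of Ccl2, Ccl7 and Ccl12, stood at 0.147 of its 0 h level at 2 h (0.132 to 0.163) and 0.214 at 4 h (0.204 to 0.225). Ccrl2, a non-signalling relative that binds chemerin, was 66.2-fold and 75.0-fold higher, Ccr7, which guides cells to lymph nodes, 4.92-fold and 20.4-fold, and Ccr1 2.34-fold and 2.72-fold. Among 6 receptors tested in the AAV experiment, 4 rose and 0 fell, beside 2.23% and 4.1% of all genes. None of the 4 passed limma's test without the variance trend, without the filter or with any 1 sample left out. Those that rose included Ccr1 (log2 change 0.85, limma adjusted p = 0.0179), Ccr2 (0.91, limma adjusted p = 0.0295) and Ccrl2 (0.81, limma adjusted p = 0.0182).

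Proteases that can trim chemokines gave a mixed picture. Of 12 listed, 11 passed the filter in the LPS libraries, with 3 at least 2-fold higher and 0 lower at 2 h and 6 higher and 2 lower at 4 h, so the share higher at 2 h was near that of all genes, 20.5%, and the background at 4 h was 22.2% higher and 23.6% lower. With equal library totals 2 were higher and 2 lower at 2 h and 3 higher and 4 lower at 4 h, Dpp4, Mmp12 and Adam17 being among those no longer 2-fold higher. By that scaling 13.3% of all genes were higher and 40.6% lower at 2 h, and 12.8% and 44.1% at 4 h. Mmp13, a collagenase, was 82.6-fold and 208-fold higher, and Mmp14, a membrane-bound matrix metalloproteinase, 41.7-fold and 87.1-fold. Among 10 tested in the AAV experiment, 1 rose and 0 fell, beside 2.23% and 4.1% of all genes. Mmp9 had 27.4 and 44.2 TPM under AAV-GFP against 14.6 and 18.95 TPM under AAV-Shisa3. Its log2 change of -1.02 did not pass (limma adjusted p = 0.0646), but it passed with at least 1 TPM in every sample. The gene that rose was Mmp13, at 111 and 135 TPM against 184 and 208 TPM (log2 change 0.68, limma adjusted p = 0.0353). This call was lost in the same fits as those of the receptors.

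The genes whose pattern was most like each member were found by Euclidean distance over the log2 changes of LPS 2 h, LPS 4 h and AAV-Shisa3, among 10529 genes kept in both tables. Each point thus rests on 7 libraries, with the 0 h library shared by both LPS changes. Ccl3 was nearest to Htra4 (distance 0.0902) and then to Ccrl2 (0.334), Ccl2 to Batf2 (0.147) and Usp18 (0.250), Ccl12 to Csf3 (0.335) and Ccl7 to Lhx2 (0.293) and Il6 (0.556). Ccl4 was nearest to Il27 (0.595) and Il12b (0.604), which encode cytokine subunits. Ccl9 was nearest to Spryd7 (0.209), Ccl24 to Odc1 (0.793) and Ccl6 to Agtpbp1 (0.0203). Ccl5 was nearest to Shisa3 itself, at a distance of 0.836, although Shisa3 is also the gene transduced in the AAV experiment. Shisa3 was at 1, 164 and 3174 reads over the LPS time points. Among the members, Ccl7 and Ccl12 were nearest to each other (0.712), as were Ccl2 and Ccl3 (1.24), whereas Ccl3 and Ccl4, the neighbours on the chromosome, were not each other's nearest. Ccl22 was not tested in the AAV experiment and so had no distance.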

How the data were processed

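RNA-seq of BMDMs was taken from the authors' deposited tables. The deposited LPS table gives a scaled signal for every gene; 100% of values were whole multiples of 1 step (tolerance 0.01 reads), and reads were recovered from it. For AAV, the deposited values were read as TPM, inferred from sums of 999778 to 999818 per sample. The labels name mm9; the aligner and annotation are not given in the sources used here. Genes with a mean of at least 1 were kept. LPS log2 changes were taken on log2(signal + 1) and called at 2-fold. Printed folds are plain ratios of signal without the added 1, and the intervals on them are exact conditional binomial at 95%. AAV groups were compared with limma 3.58.1 (R 4.3.3) trended test on log2(TPM + 1), Benjamini-Hochberg, threshold 0.05. Alternatives were TMM (edgeR 4.0.16), equal totals and median centring for LPS, median centring, no variance trend and a replicate block for AAV, and filters and pseudocounts for both. The design had branches for counts and TPM. All 10 members were named, with lists of other ligands, receptors and proteases and the 3 nearest genes per member. The members and lists were chosen with earlier results of these data known. Coding sequences were aligned with Biopython 1.88. The values of 1 further receptor and 1 further coding window are not reported here. Scripts were tested on simulated data.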

Additional observations from a re-analysis of the deposited data

How the results depend on the processing

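The count of 5 members higher with AAV-Shisa3 was 0 with limma without the variance trend (6 at an unadjusted p under 0.05, beside 7.23% of all genes higher), 0 without the filter (7 unadjusted, 5.51%), 4 with a pseudocount of 0.1, where Ccl24 had adjusted p = 0.0575, and 0 to 1 with a sample left out (5 to 7 unadjusted, 5.49% to 7.11%), the 1 being Ccl4 without AAV-Shisa3 replicate 2. In those fits the lone sample is assumed to vary like the other group. All genes higher and lower were 1 and 4 without the trend, 410 and 230 centred, 0 and 0 without the filter, 325 and 617 with at least 1 TPM in every sample (4 members, Ccl24 not being tested), and 0 to 27 and 0 to 7 with a sample left out. With the replicate number as a block they were 424 and 851, and 6 members passed, Ccl2 being added (limma adjusted p = 0.0455). In that fit Ccl8, of the other CC chemokines, passed as lower. Of the proteases, Mmp13, Elane and Ctsg passed as higher and Mmp9 as lower. The labels do not tie the replicate numbers to shared mice or days, and the deviations of same-numbered samples correlated at 0.188 over genes. With 2 pairs this did not settle whether the samples are paired, and the fit without the block is reported.

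The changes of Ccl5 and Ccl6 turned to 0.014 and 0.11 when centred and to 0.10 and 0.02 without AAV-GFP replicate 2. With a sample left out, Ccl5 ranged from -0.30 to 0.10, Ccl6 from -0.34 to 0.32 and Ccl12 from -0.12 to 0.47, the latter 2 turning without AAV-Shisa3 replicate 1. None of these had passed, and the cause was not tested. Of the 5 members that had passed, Ccl3, Ccl4, Ccl7 and Ccl9 each passed in 4 of 6 alternatives that kept all samples. Ccl24 passed in 2 of 5. Of the member values under alternatives, 52 of the AAV values kept their direction and side of the threshold, 30 no longer passed, 1 newly passed and 6 turned.

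For LPS, the count of 9 members held under every alternative at 2 h and 4 h. With equal library totals 2377 genes were higher and 7288 lower at 2 h, and 2303 and 7908 at 4 h, whereas median centring gave 4808 and 3454, and 5285 and 3036. At 4 h against 2 h, centring gave 5 members in place of 3, with 3339 of all genes higher and 2260 lower. A pseudocount of 5 gave 1830 genes higher and 1551 lower, and a mean of at least 5 gave 2110 higher. Low reads at 0 h, 10 for Ccl12 and 23 for Ccl7, limit the size of their folds.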
